A study of Mus musculus with 2 samples.

Results

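The cells described here are alveolar macrophage-like cells of a mouse lung with a low metastatic burden. They were chosen by a gate on transcript levels, where a level is the number of unique molecular identifiers (UMIs, tags that mark single captured transcripts) of a gene per 10000 UMIs of the cell. A cell was gated when Ear1, Ear2, Ear10, Chil3 and Fabp1 summed to at least 40 per 10000 and Sftpc, the surfactant protein C gene of alveolar type 2 cells, stayed under 150 per 10000. In the low-burden library 504 of 2473 kept cells were gated (20.4%, 95% Clopper-Pearson interval 18.8 to 22.0), out of 5506 kept cells in the series. The same gate left 4 of 3033 kept cells in the high-burden library (0.132%, 0.0359 to 0.337), and no level of another gene is given for these 4 cells.

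Both libraries came from female FVB/NJ mice. At 10 weeks of age they received Met-1 cells, a mammary carcinoma line that carries the PYMT oncogene, through the tail vein. The low-burden lung was taken at week 1 and the high-burden lung at week 3 after injection, with 1 mouse and 1 library per group. No uninjected lung was analysed here. Whole lungs were perfused and dissociated with enzymes, red blood cells were lysed, and cells were profiled with 10x Genomics droplets, without a sort. The study asked how the lung around metastases and the expression of its cell types change as metastases grow. With 1 library per group there is no replicate and no test. Week, age at collection, burden, mouse and depth cannot be told apart, and every interval given here covers counting error only.

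Alveolar macrophages live on the air side of the alveolus. They descend mainly from fetal monocytes, renew themselves by division in place, and depend on granulocyte-macrophage colony-stimulating factor (GM-CSF) and transforming growth factor beta, which sustain the transcription factor Pparg. They take up and break down surfactant lipid, export cholesterol through Abcg1, and clear particles and microbes. In mice they are known by Siglecf, Marco, Itgax and a set of eosinophil-associated ribonucleases, whereas macrophages of the lung tissue carry complement C1q genes and MHC class II.

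The gate genes themselves were described and not tested, since they chose the cells. Their sum had a median of 178 per 10000 in the gated cells, with quartiles of 109 and 306 and a range of 40.0 to 730. In the other low-burden cells the median was 1.33 and the 99th percentile 30.6. The 3 gated cells nearest to the threshold had sums of 40.0, 40.5 and 41.3 and the 3 nearest cells below it 39.9, 39.5 and 39.2, so that no gap separated the sides. There were 19 cells at 30 to 40, 17 at 40 to 50, 15 at 50 to 60 and 37 at 60 to 80 per 10000. The condition on Sftpc removed 3 cells. The 4 high-burden cells had sums of 45.8, 145, 150 and 195.

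**Figure D1:**
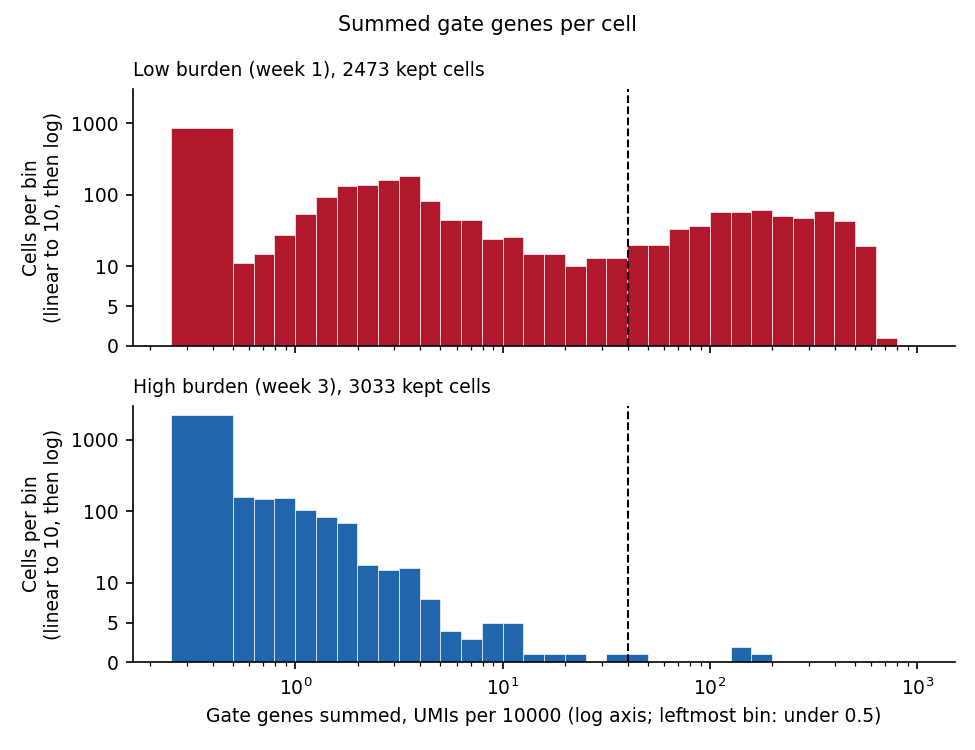
Number of kept cells (vertical axis, linear to 10 and logarithmic above) by the summed level of the 5 gate genes (horizontal log axis, UMIs per 10000) in the low-burden (top) and high-burden (bottom) library, with the gate at 40 as a dashed line. Low-burden cells formed a broad upper population with a median of 178, thinly joined to the rest at 30 to 60, and the high-burden library had 4 cells past the line.

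The gate was made up of 3 gene families. Ear1, Ear2 and Ear10 are eosinophil-associated ribonucleases, secreted RNases of the ribonuclease A superfamily. Ear2 had a median of 59.3 per 10000 over the gated cells and was at 0 in 1 of them, Ear1 had a median of 27.5 and Ear10 of 23.9. Chil3 encodes a secreted chitinase-like protein (Ym1) of mouse macrophages, and its median was 49.3 per 10000 with 3 cells at 0. Fabp1, a fatty acid-binding protein best known from liver and gut, had a lower median of 7.92 per 10000 and was at 0 in 104 cells. Its upper quartile of 19.4 and 90th percentile of 41.2 show how unevenly it was spread. The remaining given markers were outside the gate. Abcg1, the exporter of cholesterol, had a median of 14.4 per 10000 with 23 cells at 0, and the keratin Krt79 had a median of 3.61 with 165 cells at 0.

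Low-burden cells were also clustered, without the gate genes among the variable genes, and 3 of 22 clusters were named alveolar macrophage-like from 7 markers. Since 5 of these 7 are the gate genes, the names draw on the values that chose the cells and are no check of the label. The clusters so named held 471 of the 504 gated cells (93.5%) and 10 cells outside the gate. The other 33 gated cells lay in clusters named monocyte-like (12 cells), fibroblast-like (12), interstitial macrophage-like (7) and T-cell-like (2). Near the threshold the clusters and the gate agreed least. The alveolar macrophage-like clusters held 6 of 17 gated cells at 40 to 50 and 7 of 15 at 50 to 60 per 10000, and 33 of 37 at 60 to 80. The label was checked on defining genes outside the gate and outside these 7 markers, which were present. Itgax, the integrin CD11c, had a UMI in 55.6% of gated cells and 0.552% of T-cell-like cells of the same library, which should lack it and had a like depth (medians of 3198.5 and 3187 UMIs). Siglecf, a sialic acid-binding lectin, was seen in 27.0% against 1.66%, and the scavenger receptor Marco in 9.33% against 0.552%. T-cell-like cells give a background level only, and this comparison does not tell the gated cells from other phagocytes. Among those, Siglecf was seen in 1.13% of monocyte-like and interstitial macrophage-like cells and 0.990% of dendritic-like cells. Marco was concentrated, with 44.3% of its UMIs in 10 of the 504 cells, whereas Siglecf was not, with 15.2% in its top 10 cells. Siglec5 of the marker list is not in the gene table used here.

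Ribonuclease genes of 1 chromosome were among those with the highest ratios of gated cells to the rest of the lung. Counts were summed over cells and scaled to a total of 1000000 UMIs (counts per 1000000, CPM), and each transcript end is counted once, so no scaling to gene length is needed. Ear6 stood at 566 CPM in the gated cells and 2.70 CPM in the 1969 other low-burden cells (log2 ratio 7.71, 7.20 to 8.28), and it was seen in 66.5% of gated and 1.10% of T-cell-like cells. Ang5, an angiogenin ribonuclease of the same superfamily, stood at 472 against 2.70 CPM (7.45, 6.93 to 8.02), and Ang4 at 652 against 8.02 CPM (6.34, 6.04 to 6.67). Neither was used by the gate, although both are kin of the gate genes. Together with Ear1, Ear2 and Ear10 they lie on chromosome 14 of the mouse genome (mm10). Ear1 spans chr14:43818765-43875517 and Ear10 chr14:43922720-43923559 on the minus strand. Ang5 spans chr14:43957069-43963072, Ear2 chr14:44102654-44103534 and Ear6 chr14:51853699-51854643 on the plus strand, and Ang4 chr14:51763878-51773590 on the minus strand.

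The start of these genes carries shared sequence. The promoters are shown because Ear6, Ang5 and Ang4, outside the gate, were high in these cells and are kin of Ear1, Ear2 and Ear10. The high level of Ear1, Ear2 and Ear10 was set by the gate and supports nothing. Sequences are from RefSeq on GRCm38.p6, the assembly of mm10. Each line gives the 120 bases that precede the RefSeq start, read 5′ to 3′ on the strand of the gene. RefSeq starts can differ from the gene spans given above. The Ear1 stretch lies inside the Ear1 span, and the Ear6 stretch overlaps the Ear6 span. Capitals mark a run of 30 bases that is identical among the 4 Ear genes, or between Ang5 and Ang4. The Ear stretches are chr14:43819640-43819759 (minus strand) for Ear1, chr14:44102534-44102653 (plus) for Ear2, chr14:43923597-43923716 (minus) for Ear10 and chr14:51853648-51853767 (plus) for Ear6. The Ang stretches are chr14:43956949-43957068 (plus) for Ang5 and chr14:51773591-51773710 (minus) for Ang4.
Ear1: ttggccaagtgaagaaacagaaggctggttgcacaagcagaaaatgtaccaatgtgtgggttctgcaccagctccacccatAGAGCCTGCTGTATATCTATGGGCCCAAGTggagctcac
Ear2: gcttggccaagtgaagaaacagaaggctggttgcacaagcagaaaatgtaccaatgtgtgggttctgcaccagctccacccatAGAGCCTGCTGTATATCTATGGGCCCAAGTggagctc
Ear10: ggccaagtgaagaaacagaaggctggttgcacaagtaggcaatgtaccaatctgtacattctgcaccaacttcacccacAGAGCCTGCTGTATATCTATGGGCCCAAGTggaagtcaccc
Ear6: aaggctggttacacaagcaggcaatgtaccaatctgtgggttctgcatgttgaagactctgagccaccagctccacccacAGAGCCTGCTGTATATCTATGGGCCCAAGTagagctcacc
Ang5: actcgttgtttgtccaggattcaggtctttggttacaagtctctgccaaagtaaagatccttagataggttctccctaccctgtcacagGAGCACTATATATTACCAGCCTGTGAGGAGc
Ang4: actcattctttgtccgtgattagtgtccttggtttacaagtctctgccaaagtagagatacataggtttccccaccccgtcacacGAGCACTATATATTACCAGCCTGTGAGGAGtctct

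The Ear run was found in the 300-base promoter window of 4 of 27025 genes (0.0148%), which are the 4 genes printed here. The Ang run was found in 3 of 27025 genes (0.0111%), which are Ang4, Ang5 and Ang6. Over whole windows, Ear1 and Ear2 were identical at 294 of 297 aligned bases, the other pairs of Ear genes 92.2% to 93.2%, and Ang4 and Ang5 90.8%. The transcripts share sequence as well. Of all stretches of 50 bases, 57.4% of Ear1, 41.5% of Ear2 and 39.9% of Ear10 also occur in another gene, against 1.07% of Ear6, 4.92% of Ang5 and 4.70% of Ang4. A read from such a stretch cannot be assigned to 1 gene, so the single values of Ear1, Ear2 and Ear10 are uncertain and those of Ear6, Ang5 and Ang4 less so.

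The letters AGGAAGT, the core of the motif of the macrophage factor PU.1 (gene Spi1), were searched on both strands of the same windows. Of the 7 given markers and the 20 genes with the highest ratios to the other cells, 25 genes in all, 22 had a window, and 6 held the letters (27.3%), namely Ang5, Ang4, Tfec, Mcoln3, Ltc4s and Chil3. Over all genes the share was 2886 of 27025 (10.7%). The windows of Ang5 and Ang4 are 90.8% identical, so their matches are not separate cases. A match describes these letters and is no evidence of binding. The following lines show 57 bases around the match, in capitals, for Ang5 (chr14:43956846-43956902, plus strand), Ang4 (chr14:51773768-51773824, minus strand) and Chil3 (chr3:106167593-106167649, minus strand), which are among the named genes with the highest levels. Chil3 holds the letters on the opposite strand. The match begins 198 bases before the start of Ang5, 209 before that of Ang4 and 60 before that of Chil3.
Ang5: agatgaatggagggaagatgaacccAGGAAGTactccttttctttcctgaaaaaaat
Ang4: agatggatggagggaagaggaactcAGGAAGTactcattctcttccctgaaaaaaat
Chil3: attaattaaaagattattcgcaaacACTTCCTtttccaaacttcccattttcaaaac

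Against the rest of the low-burden lung, 309 of 9708 genes with at least 100 UMIs were at least 4-fold higher in the gated cells (3.18%) and 1553 at least 4-fold lower (16.0%). The median log2 ratio over all tested genes was −0.26, so that single ratios are best read against this value. Because the gate chose cells by transcripts, these ratios describe the cells and support nothing beyond that. Among the 20 highest genes outside the ribonucleases, Olr1, a receptor for oxidised lipoprotein, stood at 195 against 2.35 CPM (6.37). Cidec, a lipid droplet protein, stood at 125 against 1.83 CPM (6.09, 5.45 to 6.81). Atp6v0d2, a subunit of the proton pump of lysosomes, stood at 441 against 7.15 CPM (5.95, 5.62 to 6.29). The formyl peptide receptors Fpr1 (5.69) and Fpr2 (5.30) sense bacterial peptides, and Wfdc21 (641 against 10.0 CPM) is a small secreted protein. The metal ion transporter Slc39a2 (5.55), the lysosomal channel Mcoln3 (5.40), coagulation factor F7 (5.40) and the transcription factor Tfec (5.42) were also among the 20 highest, as were B3gnt7 (5.00), the interleukin 1 receptor antagonist Il1rn (4.94) and leukotriene C4 synthase Ltc4s (4.87).

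**Figure D2:**
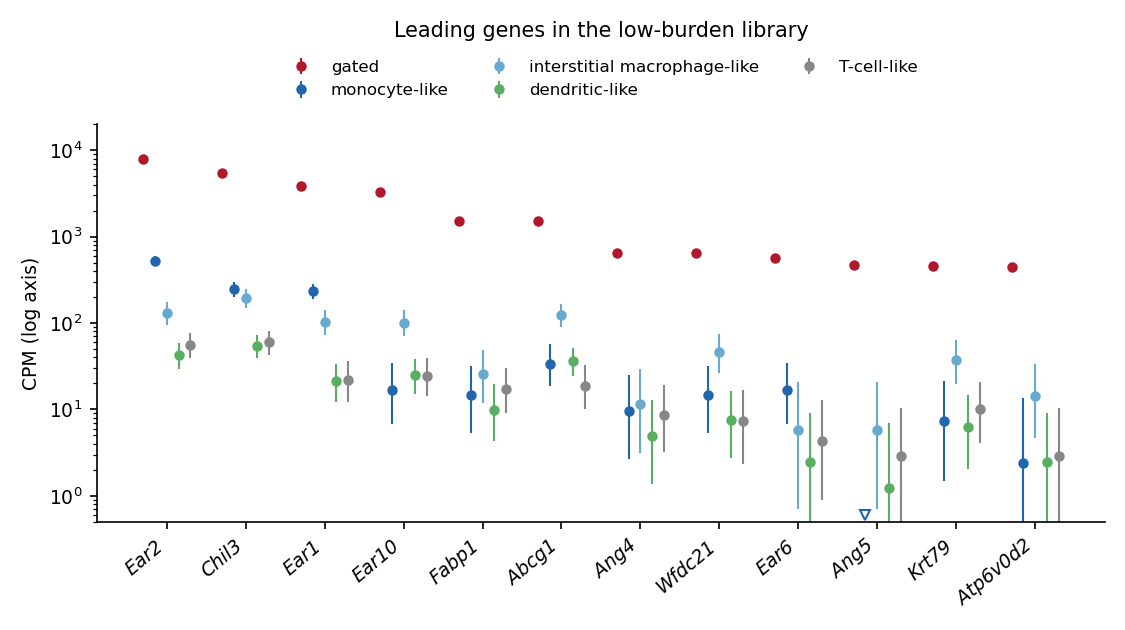
Level of 12 genes (vertical log axis, CPM, points with exact 95% Poisson intervals, open triangles at the base where no UMI was seen) in gated, monocyte-like, interstitial macrophage-like, dendritic-like and T-cell-like cells of the low-burden library. Each gene was highest in the gated cells, from 441 CPM for Atp6v0d2 to 7886 CPM for Ear2, with the gate genes Ear1, Ear2, Ear10, Chil3 and Fabp1 shown as a description.

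The 10 genes with the lowest ratios were genes of other lung cells, among them Lbp (0.553 against 41.0 CPM, log2 ratio −6.21, −11.5 to −3.73), the tight junction gene Cldn3 (−5.52), the matrix protease Adamts5 (−4.56, −6.85 to −3.01), Igfbp5 (−4.55), Rbp4 (−4.50) and the club cell gene Scgb3a2 (−4.44). Most of what the gated cells held of such transcripts was at the level of any droplet. The club cell secretory gene Scgb1a1 had UMIs in all 504 gated cells, with a median of 29.3 per 10000, and stood at 2907 CPM in gated and 2439 CPM in T-cell-like cells. A set of 20 genes of alveolar type 2, club and ciliated cells summed to 3915 CPM in the gated cells, 10.9% of their level of 35870 CPM over all kept cells. PYMT had 0 UMIs in the gated cells and in the whole library. With 3 cells as the floor in place of 0 of 504, the share of cells with a PYMT UMI is 0.595%. That value is no exact interval and does not limit the share of cells that express PYMT.

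Other mononuclear phagocytes of the same lung, 107 monocyte-like and 70 interstitial macrophage-like cells outside the gate, were summed into 1 comparison group, the myeloid comparison cells. Of 5587 genes with at least 50 UMIs over both sides, 246 were at least 4-fold higher in the gated cells (4.40%) and 174 at least 4-fold lower (3.11%), around a median log2 ratio of 0.20. Apart from the ribonucleases, the highest ratios belonged to Olr1 (6.21, 4.35 to 9.27), Atp6v0d2 (441 against 7.89 CPM, interval of the log2 ratio 4.68 to 7.26), Gpnmb (201 against 5.26 CPM, 5.25), a glycoprotein of lysosome-rich macrophages, the matrix protease Mmp19 (5.21, 2.69 to 10.5), Mcam (5.16, 3.29 to 8.22) and Siglecf (5.12, 3.24 to 8.18). Other genes had no UMI in the monocyte-like and interstitial macrophage-like cells. Set against a floor of 3 UMIs over that group, Slc39a2 was 18.7-fold higher and Slc6a4, the serotonin transporter, 15.4-fold. With the same floor C77080 was 12.9-fold higher, C530008M17Rik 8.42-fold and Rbl1 7.43-fold. These ratios to the floor are no exact limits, and the lower ends of the exact intervals were smaller for each of these genes. Kazald1 completed the 15 highest (5.39, 2.88 to 10.7), with 1 UMI in the comparison cells.

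The lowest ratios belonged to the genes that define tissue macrophages. C1qa stood at 18.3 CPM in gated and 2106 CPM in monocyte-like and interstitial macrophage-like cells (−6.85, −7.39 to −6.35), C1qb at 9.40 against 1242 CPM (−7.05) and C1qc at 10.5 against 1098 CPM (−6.71). The comparison levels of these genes came from the interstitial macrophage-like cells. There C1qa stood at 4584, C1qb at 2709 and C1qc at 2396 CPM, against 19.4, 7.26 and 4.84 CPM in monocyte-like cells. The folate receptor Folr2 (−7.38, −12.7 to −4.85), the complement receptor C3ar1 (−7.23, −12.6 to −4.70) and the membrane protein Ms4a7 (−6.80) each had 4 or fewer UMIs in the gated cells. Folr2 and C3ar1 had 0 UMIs in monocyte-like cells as well. Coagulation factor F13a1 (−6.51, −8.81 to −4.93), Pla2g2d (−5.97, −8.28 to −4.37), Fcrls (−5.97, −8.28 to −4.37), Fxyd2 (−5.66, −7.98 to −4.05), the lectins Mgl2 (−5.48) and Cd209a (−5.28), the chemokine Pf4 (−5.44) and BC035044 (−4.86) were also among the 15 lowest. Monocyte-like and interstitial macrophage-like cells both carried F13a1 (138 and 167 CPM) and BC035044 (60.5 and 69.0 CPM). C1qa had a UMI in 3.57% of gated and 3.31% of T-cell-like cells, so its share in the gated cells was at background.

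**Figure D3:**
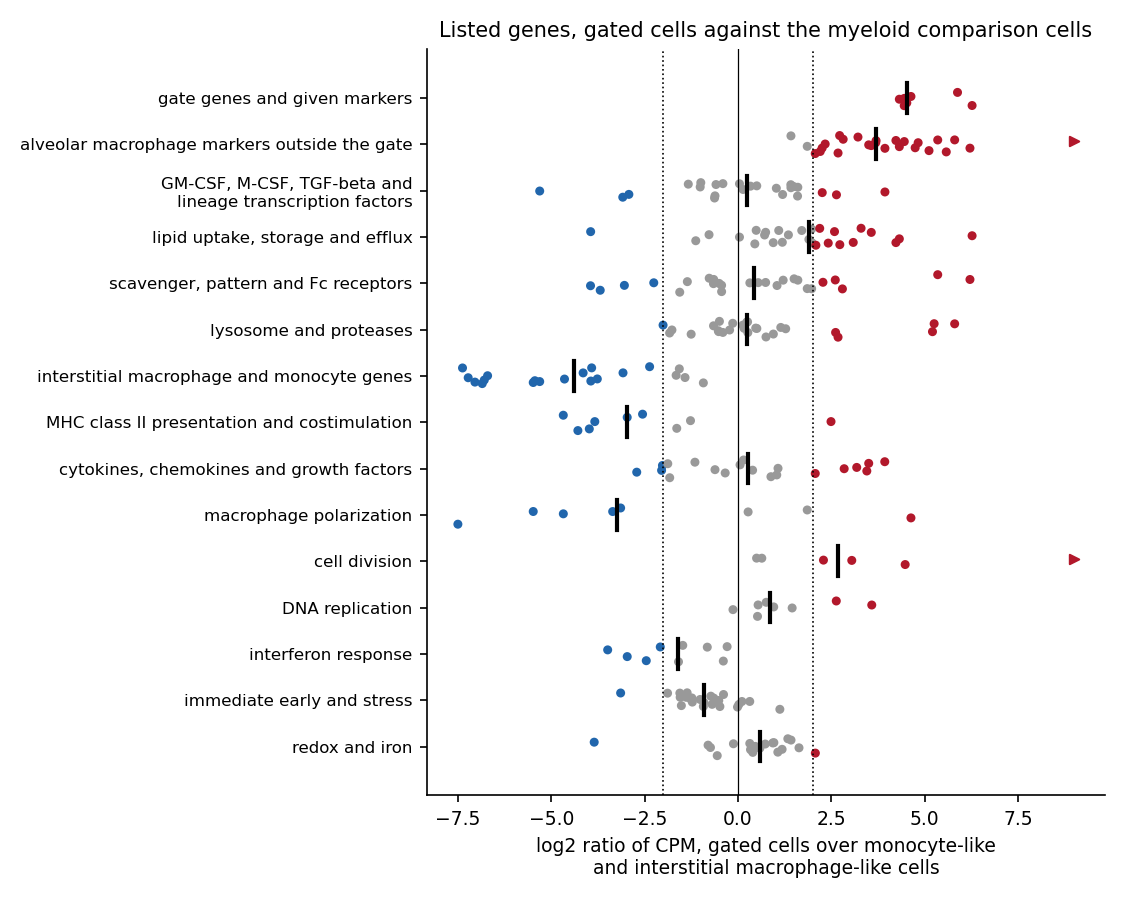
Log2 ratio of CPM in gated cells over monocyte-like and interstitial macrophage-like cells (horizontal axis) for the tested genes of each list, with 1 point per gene, red at 4-fold higher or more, blue at 4-fold lower or more, grey between, triangles for genes with no UMI in the comparison cells, and bars at list medians. Marker genes of alveolar macrophages lay to the right (median 3.69), and genes of interstitial macrophages and monocytes (−4.40) and of MHC class II presentation (−2.97) to the left.

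Genes known as alveolar macrophage markers, gate genes left out, mostly had high ratios. Of 26 tested, 23 were at least 4-fold higher than in the rest of the lung and none 4-fold lower (median log2 ratio 4.76), and 24 and 0 against monocyte-like and interstitial macrophage-like cells (3.69). Among all genes tested, 3.18% and 4.40% were 4-fold higher in these comparisons and 16.0% and 3.11% lower, which are the shares beside which this count and those of the lists below stand. Listed genes under the UMI minimum are not counted, and a gene that reached it through the gated cells alone had to be higher. In this list that held in both comparisons for Slc39a2, Cidec, Siglecf, Olr1, Ear6, F7 and Atp6v0d2, among others. These genes had 18 to 82 UMIs in all other cells and 0 to 9 in the myeloid comparison cells. The direction of their part of the count was therefore fixed in advance. Counts of higher genes in the lists below share this limit. The chemokine Ccl6 stood at 4384 CPM in gated cells, 1044 in monocyte-like and interstitial macrophage-like cells and 169 in all other cells. Plet1, a surface protein, stood at 858, 30.2 and 39.7 CPM, the cytokine Il18 at 655, 57.8 and 19.1 CPM, and the mannose receptor Mrc1 at 680, 188 and 24.8 CPM. Car4, a carbonic anhydrase shared with lung capillaries, stood at 259 CPM in gated and 422 CPM in all other cells (−0.70), but at 51.3 CPM in the myeloid comparison (2.34). The adhesion protein Cd2, better known from T cells, stood at 232 CPM in gated and 426 CPM in T-cell-like cells.

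The growth factor receptors and transcription factors of the lineage split. Against the rest of the lung 9 of 25 were higher and 2 lower by 4-fold (median 1.42), and against monocyte-like and interstitial macrophage-like cells 3 of 24 were higher and 3 lower (0.24). Among receptors, the shared GM-CSF receptor chain Csf2rb stood at 171 CPM against 56.5 CPM in monocyte-like and interstitial macrophage-like cells (95% interval of the log2 ratio 1.13 to 2.09). Csf2ra, the other chain, stood at 99.6 against 198 CPM, and Csf1r, the receptor for macrophage colony-stimulating factor, at 73.0 against 553 CPM (−2.92, −3.22 to −2.64). The transforming growth factor beta receptor Tgfbr2 stood at 267 against 94.6 CPM (1.49).

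Among transcription factors, Pparg stood at 49.2 against 18.4 CPM (1.42, 0.60 to 2.35) and was seen in 14.7% of gated and 2.21% of T-cell-like cells. Bhlhe41, which restrains alternative macrophage fates, stood at 101 against 6.57 CPM (3.94), Egr2 at 138 against 28.9 CPM (2.26) and Tfec at 81.9 against 13.1 CPM (2.64). The myeloid factors Spi1 (373 against 576 CPM, −0.63) and Cebpb (1891 against 2501 CPM, −0.40) were within 4-fold. The transcription factor Maf was lower (11.6 against 98.6 CPM, −3.09).

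Among genes of lipid handling, 11 of 27 were higher and 1 lower by 4-fold against the myeloid comparison cells (median 1.90), and 10 of 32 were higher and 3 lower against the rest of the lung (0.89). Both counts include the gate gene Fabp1. Lipoprotein lipase Lpl stood at 1284 CPM against 68.4 CPM in monocyte-like and interstitial macrophage-like cells (4.23, 3.84 to 4.66), and the lipid droplet coat protein Plin2 at 1026 against 259 CPM (1.99). The cholesterol ester hydrolase Nceh1 (349 against 35.5 CPM, 3.30) and the fatty acid-binding protein Fabp5 (537 against 63.1 CPM, 3.09) were 4-fold higher, and Fabp4 (180 against 46.0 CPM, 1.97) fell just short. The apolipoprotein Apoe went the other way, at 589 CPM against 9070 CPM (−3.95, −4.04 to −3.85), while Apoc1 stood at 261 against 43.4 CPM (2.59). Lpl had a median of 10.9 per 10000 over the gated cells with 57 at 0, and Plin2 of 8.95 with 54 at 0, so both were carried by most cells.

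Of the receptors for particles, microbes and dying cells, 17 of 24 were 4-fold higher than in the rest of the lung and 0 lower (median 2.57). Against monocyte-like and interstitial macrophage-like cells they were mixed, with 5 of 26 higher and 4 lower (0.43). The higher ones were Olr1, Marco (53.7 against 1.31 CPM, 5.35, 2.84 to 10.7), the receptors for dying cells Mertk (155 against 22.4 CPM, 2.80) and Axl (357 against 73.6 CPM, 2.28), and the lectin Clec4n (504 against 82.8 CPM, 2.61). The lower ones were Clec4a1 (−3.95), the inhibitory Fc receptor Fcgr2b (−3.69), the platelet-activating factor receptor Ptafr (−3.04) and the endotoxin coreceptor Cd14 (126 against 599 CPM, −2.26). Tyrobp and Fcer1g, adaptors of activating receptors, were within 4-fold at 2492 against 3377 CPM and 1484 against 2532 CPM.

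The 29 genes of lysosomes and proteases summed to 31255 CPM in gated, 36486 CPM in monocyte-like and interstitial macrophage-like and 15290 CPM in all other cells. Against the rest of the lung 9 of 27 were higher and 2 lower (median 1.42), and against the myeloid comparison cells 5 were higher and 1 lower of 27 (0.24). Lysozyme Lyz2 stood at 11174 against 15765 CPM in the latter comparison (−0.50), prosaposin Psap at 5394 against 2796 CPM (0.95) and cathepsin D, Ctsd, at 3182 against 519 CPM (2.62). Cathepsin K, Ctsk, stood at 211 against 32.9 CPM (2.68). Lyz1, a lysozyme of epithelium, stood at 46.5 against 187 CPM (−2.01).

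Genes of interstitial macrophages and monocytes were 4-fold lower in 16 of 20 cases against those cells (median −4.40), with the reservation that several of these genes named the comparison cells, and in 11 of 20 cases against the rest of the lung (−2.18). MHC class II presentation was low too, with 6 of 9 genes lower and 1 higher against the myeloid comparison cells (median −2.97) and 6 of 12 lower and 1 higher against the rest (−1.95). Cd74, the invariant chain, stood at 1084 CPM in gated and 21175 CPM in monocyte-like and interstitial macrophage-like cells (−4.29, −4.36 to −4.22), and at 821 CPM in T-cell-like cells. H2-Aa stood at 564, 8915 and 311 CPM. Of all Cd74 UMIs in the gated cells, 59.2% came from 10 cells. In the 411 gated cells outside the groups led by genes of another cell type (described below), Cd74 stood at 329 CPM and H2-Aa at 178 CPM, under their levels in T-cell-like cells. The gene that was higher was Cd274, the checkpoint ligand PD-L1, at 118 against 21.0 CPM (2.49, 1.76 to 3.33), seen in 31.5% of gated and 3.31% of T-cell-like cells.

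Cytokines and chemokines were led by Ccl6 and osteopontin. Against monocyte-like and interstitial macrophage-like cells 6 of 20 were higher and 3 lower (median 0.27), and against the rest of the lung 10 of 28 were higher and 7 lower (0.91). Osteopontin, Spp1, stood at 1826 against 120 CPM (3.93, 3.63 to 4.25) and was seen in 91.1% of gated and 11.6% of T-cell-like cells, with a median of 14.3 per 10000. Il18 (3.50), Gdf15 (107 against 11.8 CPM, 3.18), Il1rn (123 against 17.1 CPM, 2.85), Il1a (3.45, 1.53 to 6.53) and Ccl6 (2.07) were the others that were higher. Cxcl16 (−2.71), Ccl9 (160 against 660 CPM, −2.05) and Ccl7 (−2.02) were lower. The neutrophil chemokine Cxcl2 was at 976 against 939 CPM (0.06, −0.07 to 0.18), and Il1b at 153 against 564 CPM (−1.88). Il10 and Il12b had 0 UMIs in the gated cells, and Il6 had 5.

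The genes often used to grade macrophage activation differed among themselves. Chil3, a gate gene, stood at 5516 CPM and Mrc1 at 680 CPM, whereas Retnla, a resistin-like protein, stood at 3.87 CPM against 702 CPM in monocyte-like and interstitial macrophage-like cells (−7.50) and was seen in 1.39% of gated and 1.66% of T-cell-like cells. Arg1, Nos2, Chil4 and Cd163 had 0 UMIs in 504 gated cells. Counting the whole list, 1 of 8 genes was higher and 5 lower against the myeloid comparison cells (median −3.25), and 2 of 9 higher and 4 lower against the rest of the lung (−1.45). Both counts of higher genes include Chil3, which is the 1 gene higher in the first.

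Of the interferon-induced genes, 0 were higher and 4 of 9 lower against monocyte-like and interstitial macrophage-like cells (median −1.59), where 3.11% of all genes were lower. Against the rest of the lung 0 were higher and 7 of 16 lower (−1.68), where 16.0% of all genes were lower. Ifitm3, a membrane protein that blocks viral entry, stood at 382 against 2983 CPM (−2.97), Irf7 at 6.08 against 68.4 CPM (−3.49) and Ifi27l2a at 107 CPM (−2.46). Bst2 stood at 94.6 CPM (−0.29), within 4-fold.

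Immediate early and stress genes, which dissociation of tissue is known to induce, showed few 4-fold differences, with 1 of 24 lower and 0 higher in both comparisons (medians −0.92 against the myeloid comparison cells and −0.51 against the rest). Fos stood at 1339 CPM in gated, 3125 CPM in monocyte-like and interstitial macrophage-like and 1368 CPM in all other cells. The gene called lower was Socs3 in both. Redox and iron genes had 1 higher and 1 lower of 19 (median 0.59) and 1 higher and 3 lower of 21 (0.06). The ferritin chains Ftl1 (13639 CPM) and Fth1 (12152 CPM) were among the most abundant transcripts of the gated cells with log2 ratios of 0.59 and 1.07 to the myeloid comparison cells. Thioredoxin Txn1 stood at 1123 against 361 CPM (1.64), and haem oxygenase Hmox1 at 207 against 106 CPM (0.96).

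The gated cells varied among themselves. Clustered alone, they formed 7 groups, and since every gene of the clustered cells took part in forming them, the groups are described without a test. The largest held 200 cells (39.7%) and had the highest gate genes, with a median sum of 305 per 10000. In it Apoc1 stood at 440 CPM against 119 CPM in the rest of the groups without genes of another cell type (log2 ratio 1.89), Ear6 at 889 against 375 CPM (1.25), Fabp4 at 260 against 133 CPM (0.96) and Pparg at 72.1 against 34.1 CPM (1.08, 0.35 to 1.85). A second group of 105 cells (20.8%) had a median sum of 169. It was led by haemoglobin genes, but 51.2% of its Hbb-bs UMIs and 52.9% of its Hba-a1 UMIs came from 1 cell, and its haemoglobin sum per cell had a median of 7.61 per 10000 against 7.62 in T-cell-like cells. Lpl in this group stood at 1743 against 1334 CPM (0.39) and Spp1 at 2427 against 1929 CPM (0.33).

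Another group, of 83 cells (16.5%) was led by inflammatory genes and had a median sum of 132. Il1b stood at 556 against 72.4 CPM in the rest (2.94, 2.54 to 3.35) and was seen in 51.8% of its cells. Cxcl2 stood at 2405 against 749 CPM (1.68), Cxcl1 at 160 against 28.1 CPM (2.51), Tnf at 120 against 34.9 CPM (1.78), the inflammasome sensor Nlrp3 at 212 against 64.7 CPM (1.71) and the metallothionein Mt1 at 3274 against 1197 CPM (1.45). The elastase Mmp12 stood at 400 against 29.8 CPM, but 56.0% of its UMIs came from 1 cell. The alarmins S100a8 (908 against 105 CPM) and S100a9 (716 against 57.9 CPM), which neutrophils carry in abundance, were high as well. Of 9 neutrophil markers, which include these alarmins, Ly6g and Ngp were at 0 in every group of gated cells, so their absence does not set this group apart. Each of the others was higher here than in the rest. Csf3r stood at 56.0 against 12.8 CPM and Retnlg at 36.0 against 5.96 CPM. Il1r2 (4.82, 2.65 to 8.02), Mmp9 (4.82, 1.77 to 10.3) and Cxcr2 (3.82, 0.179 to 9.53) had larger log2 ratios, from few UMIs. The part of neutrophil transcripts in these levels was not tested.

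The fourth group, of 23 cells (4.56%), was made of dividing cells. Mki67 stood at 564 against 5.99 CPM (6.56), the topoisomerase Top2a at 903 against 3.74 CPM (7.91), the survivin gene Birc5 at 666 against 2.25 CPM (8.21) and the replication clamp Pcna at 564 against 127 CPM (2.15). The 26 alveolar macrophage markers outside the gate summed to 11655 CPM in this group, below the 20264, 18174 and 14635 CPM of the groups of 200, 105 and 83 cells, while Krt79 stood at 666 against 501 CPM (0.41). Of the gate genes, Chil3 stood at 5608 against 6147 CPM, and the ribonucleases were lower, with Ear2 at 3453 against 9300 CPM (−1.43) and Ear1 at 1884 against 4498 CPM (−1.26). S100a1 was lower too (−2.29).

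The other 3 groups, 93 cells in all, carried genes of another cell type beside the gate genes. One of 50 cells was led by Cd74, H2-Aa and Plac8 and had a median sum of 76.1 per 10000. One of 16 cells was led by Mgp, Col1a2 and Dcn, genes of fibroblasts, and had a median sum of 95.4. One of 27 cells was led by Cldn5, Cdh5 and Kdr, genes of endothelium, and had a median sum of 116. Whether these are droplets with more than 1 cell was not tested. Without them the counts of genes 4-fold higher and lower were 319 and 1841 against the rest of the lung and 239 and 202 against the myeloid comparison cells.

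**Figure D4:**
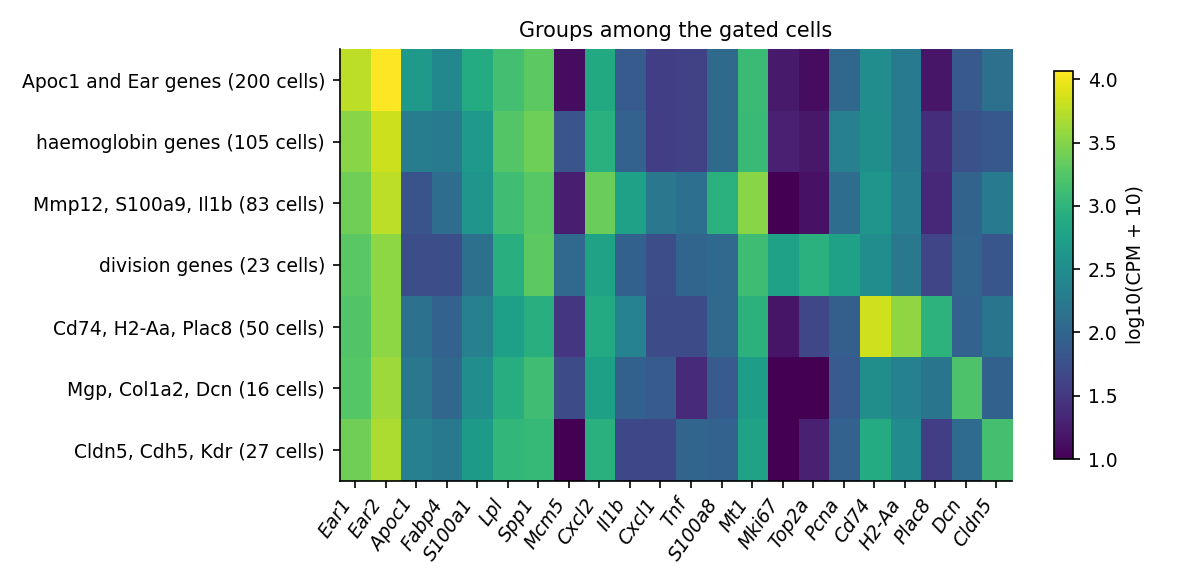
Level of 22 genes (columns, colour as log10 of CPM + 10) in the 7 groups of gated cells (rows, with cell numbers), ordered with the 4 groups without genes of another cell type on top. Il1b, Cxcl2 and S100a8 were highest in the third row, division genes in the fourth, and Cd74, Dcn and Cldn5 each in 1 of the lowest 3 rows.

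Division was counted over all gated cells as the share with UMIs of at least 2 of 25 division genes. It was 56 of 504 cells (11.1%, 8.50 to 14.2), and 39 of 504 (7.74%, 5.56 to 10.4) when every cell was thinned to 2000 UMIs, which no kept cell fell short of. Thinned in the same way, 0 of 107 monocyte-like cells (upper limit of the interval 3.39%), 2 of 70 interstitial macrophage-like cells (2.86%, 0.348 to 9.94), 4 of 101 dendritic-like cells (3.96%, 1.09 to 9.83) and 19 of 181 T-cell-like cells (10.5%, 6.44 to 15.9) met the condition. The interval of the gated cells thus overlapped those of interstitial macrophage-like, dendritic-like and T-cell-like cells, and lay above that of monocyte-like cells. Of the division genes, 3 of 8 were 4-fold higher than in the rest of the lung and 0 lower (median 1.81), and 5 of 8 were in the 411 cells outside the groups led by genes of another cell type. Against the myeloid comparison cells 6 of the 25 reached 50 UMIs, and all but Cks2 did so through the gated cells alone, so no count is given there. Mki67 stood at 32.6 CPM against 4.88 CPM in all other cells (2.74). Birc5, at 34.3 CPM, had no UMI in the monocyte-like and interstitial macrophage-like cells. Its ratio against the floor of 3 UMIs was 8.70-fold, which is no exact limit. DNA replication genes had 0 of 11 past 4-fold against the rest (median 1.12). No count is given for them against the myeloid comparison cells, where the UMI minimum favours genes high in the gated cells. All 18 listed summed to 524 against 283 CPM in that comparison, with Pcna at 138 against 81.5 CPM (0.76).

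**Figure D5:**
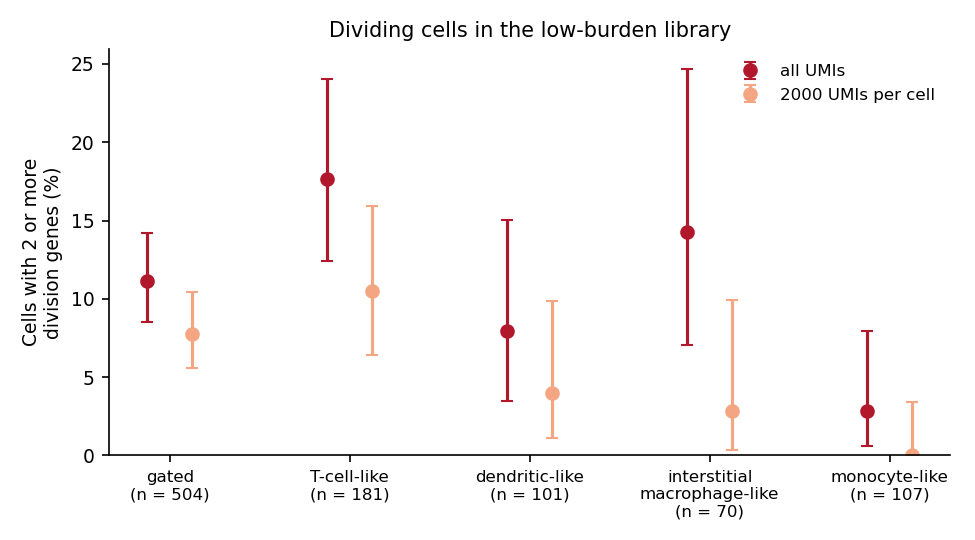
Share of low-burden cells with UMIs of 2 or more of 25 division genes (vertical axis, percent, exact 95% binomial intervals) with all UMIs and with 2000 UMIs per cell, for 5 cell classes (horizontal axis, with numbers of cells). The gated cells stood at 11.1% and 7.74%, near the T-cell-like cells (17.7% and 10.5%) and above the monocyte-like cells (2.80% and 0%).

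Depth moved some of these values. The gated cells had a median of 3198.5 UMIs (quartiles 2737.5 and 4095, range 2388 to 11495) and 1428 genes, against 4476 UMIs and 1780 genes in the other low-burden cells, and a median mitochondrial share of 3.88% against 2.99%. From the shallowest to the deepest of 4 equal parts of the gated cells, the median gate sum was 159, 157, 219 and 214 per 10000, and the number of dividing cells 8, 12, 16 and 20. No barcode of the low-burden library had fewer than 2388 UMIs and none of the high-burden library fewer than 5163. In the low-burden library that lower end is 60.1% of the median depth, so shallower cells were not seen in either library, and the 4 remaining high-burden cells cannot be set against cells below that depth. The high-burden lower end of 5163 UMIs lay above the upper quartile of the low-burden gated cells, 4095 UMIs. The median depth per barcode was 3971 UMIs in the low-burden and 13795 UMIs in the high-burden library. The counts of 504 and 4 gated cells thus come from unlike depths, and the part of depth in them was not tested. The libraries shared 11 cell barcodes.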

How the data were processed

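Single-cell RNA sequencing of 2 mouse lungs was analysed, and the titles of the samples gave the groups. The authors ran each library through Cell Ranger 2.0.2 on mm10 with the PYMT sequence added. The deposited values are raw UMI counts per gene and cell, and the sources do not say whether they precede the aggregation that the methods name. Because whole transcripts are not read, a count marks the end of a transcript. The low-burden library held 2668 barcodes with 14041471 UMIs and the high-burden library 3121 barcodes with 52723173 UMIs, and each listed 27999 genes.

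Cells with 1000 to 7000 genes and at most 10% mitochondrial UMIs were kept, as in the study. The gate was applied to these cells. Classes of the remaining low-burden cells came from Leiden clusters (scanpy 1.11.5, 2000 variable genes without the gate genes, 10 principal components, 15 neighbours, resolution 1), named from at least 3 markers. The gated cells were clustered alone at resolution 0.5. Doublets were not removed, since the study states no removal. A cell class named here may differ from the study's because names were rebuilt.

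Counts were summed over cells and scaled to a total of 1000000 (CPM). Ratios carry exact conditional binomial intervals, levels exact Poisson intervals and shares Clopper-Pearson intervals (scipy 1.17.1), all at 95% and for counting error only. A gene was called at 4-fold, from at least 100 UMIs over both sides against other cells and 50 against monocyte-like and interstitial macrophage-like cells. Where a side had no UMI, 3 UMIs over the group were used as its floor. The ratio script was tested on simulated data.

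Named genes were, among those seen in at least 10% of either side, the 20 highest and 10 lowest ratios to other cells, the 15 highest and 15 lowest to the myeloid comparison cells, the 15 most abundant genes, the given markers, and members of 15 lists by level or known role. Some genes that this rule names are not reported here. The members and lists were chosen with earlier results of these data known. Of all listed genes and markers, 8 are not in the gene table used here. Gene coordinates came from GENCODE M21 for 27645 identifiers, and promoters (250 bases before to 50 after the start) from RefSeq, GRCm38.p6. Alternatives were other scalings, depth, filters, gates, cell sets and a subtraction of free RNA.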

Additional observations from a re-analysis of the deposited data

How the results depend on the processing

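With 1 library per group no library could be left out, and intervals do not cover variation between mice. No paired analysis was possible because each group has 1 sample. No named or listed gene past 4-fold reversed its direction in an alternative: of 3264 values against other cells 800 moved beyond their interval, and of 2601 values against monocyte-like and interstitial macrophage-like cells 403 did. Ratios with no UMI on 1 side gave no value and are not counted. Counts depended on the minimum number of UMIs. Without it, 819 genes were 4-fold higher and 6084 lower against other cells, and 2448 higher and 1265 lower against the myeloid comparison cells. With every cell thinned to 2000 UMIs the counts against other cells were 205 and 888, over 6260 genes past the minimum in place of 9708. Against the myeloid comparison cells 156 genes were higher when gated cells with 3 or more markers of another class were left out, which kept 175 of 504 cells (34.7%) and tests fewer genes, and 385 when free RNA was subtracted. There, higher genes were 58.6% of the calls, and 49.1% under median-of-ratios scaling. The gate gave 435 to 541 low-burden and 3 to 6 high-burden cells over all alternatives, including each gate gene left out in turn. The share of dividing cells was 38.9% with 1 division gene required, 6.75% with 3, and 7.74% at 2000 UMIs. At resolution 1 the gated cells formed 11 groups in place of 7. The sets of cells chosen after the data were seen, without groups led by genes of another type or within the alveolar macrophage-like clusters, kept the counts over all genes within 1.5 times. Among the lists, division genes higher against the rest went from 3 to 5 in the 411 cells outside such groups, and the other counts that moved further were of at most 2 genes.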
